A study of Ambystoma mexicanum with 12 samples.

Results

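LE135-treated limb blastemas of the axolotl (Ambystoma mexicanum) were compared with vehicle-treated blastemas, gene by gene, on Affymetrix arrays. The comparison used every LE135 sample and every DMSO sample, 8 of the 12 arrays of the study, and all 20035 probe sets that are not Affymetrix controls, out of 20080. Forelimbs of juvenile animals of mean length 8.8 cm were cut through the distal lower arm, the compound was in the housing water from day 7 to day 14 after the cut, and collection on day 14 left out most of the stump. The groups were DMSO (the solvent alone), LE135 and, besides these, retinoic acid (RA). A treatment had 16 animals, 1 forelimb of each being used, and a sample is a pool from 4 animals and not 1 animal. By the design text the DMSO limbs go on to regenerate normally, LE135 limbs end truncated and RA limbs duplicate structures along the proximodistal axis. No dose of LE135 or RA was stated in the labels.

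A blastema is the mound of dividing cells under a wound epidermis from which a salamander rebuilds a lost limb. Retinoic acid enters the nucleus, binds retinoic acid receptors that sit on DNA, and switches target genes on, while the enzymes that make it and the CYP26 enzymes that oxidize it set how much reaches the receptors. In salamander limbs added retinoic acid is known to shift blastema cells toward a more proximal identity. LE135 is a compound made to block the beta form of the receptor. RARB, the gene of that form, was not among the named probe sets.

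Values are log2 expression levels, on which a difference of 1 is a 2-fold difference, and 10951 probe sets carried 1 gene symbol each, for 8639 genes. The probe set of highest mean over the 12 samples stands for a gene that had more than 1. The samples hold connective tissue, epidermis and other cells together, so fewer cells of a type and less RNA per cell cannot be told apart. Blastema and epidermis genes were high in both groups, with means in DMSO and LE135 of 13.95 and 14.18 for COL1A1, 13.32 and 13.45 for TNC, 12.28 and 12.24 for CDH1 and 12.72 and 12.63 for COL17A1. The epidermis gene TP63 was at 8.96 and 8.15 and is among the genes that fell, described below. The mesenchyme factor PRRX1 was low, at 5.62 and 6.05. The pigment cell genes TYR and DCT and the Schwann cell gene ERBB3 lay between 3.50 and 4.16 in these 8 samples, close to the minimum of each array (3.05 to 3.15). Muscle genes varied between samples. CKM, the muscle creatine kinase, stood at 11.94, 11.90, 9.78 and 7.97 in DMSO samples 1 to 4 and at 12.13, 10.42, 11.54 and 11.65 in LE135 samples 1 to 4. All 12 cell type lists overlapped between the groups in their mean level per sample.

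DMSO 4 and LE135 4 stood apart. Their mean correlation with the other samples of their group was 0.978 and 0.986, against 0.989 to 0.995 for the other 10 arrays. The 34 skeletal muscle genes averaged 1.64 log2 units below their 12-sample means in DMSO 4 (a mean deviation of -1.64), against -0.53 to 0.42 in the other DMSO samples and -0.36 to 0.53 in LE135. The 7 erythrocyte genes were highest in LE135 4, with a mean deviation of 0.37 against -0.49 to -0.13 in the other LE135 samples. The counts of all probe sets and of the retinoid, cell division, epidermis, limb patterning, signalling and stress lists are also given without both samples.

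Between LE135 and DMSO, 418 probe sets changed (limma, Benjamini-Hochberg adjusted p under 0.05 over all probe sets), which is 2.09% of those tested. Of these 179 were higher in LE135 (0.893%) and 239 lower (1.19%), and 226 changed more than 1.5-fold (1.13%). One symbol each, 211 genes changed (2.44%), 75 higher (0.868%) and 136 lower (1.57%). The 4 samples of one group lay entirely above the 4 of the other in 417 of the 418, and in 7.53% of all probe sets. Cell division genes made up 46 of the 136 lower genes, and the higher ones included genes of retinoid metabolism, proteoglycans, proteases, epithelial surface proteins and glycosyltransferases.

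Without DMSO 4 and LE135 4, 1027 probe sets changed (5.13%), 442 higher (2.21%), 585 lower (2.92%) and 343 more than 1.5-fold (1.71%). They held 380 of the 418. By gene, 484 changed (5.60%), 179 higher (2.07%) and 305 lower (3.53%), with 198 of the 211 among them. The test takes its spread from all 12 samples, RA included. In a fit of the 8 LE135 and DMSO samples alone, 111 probe sets passed, and 48 of the 211 genes. Leaving out 1 sample at a time gave between 220 probe sets, without LE135 1, and 742, without DMSO 4, and it ended the call of 129 of the 211 genes at least once.

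**Figure D1:**
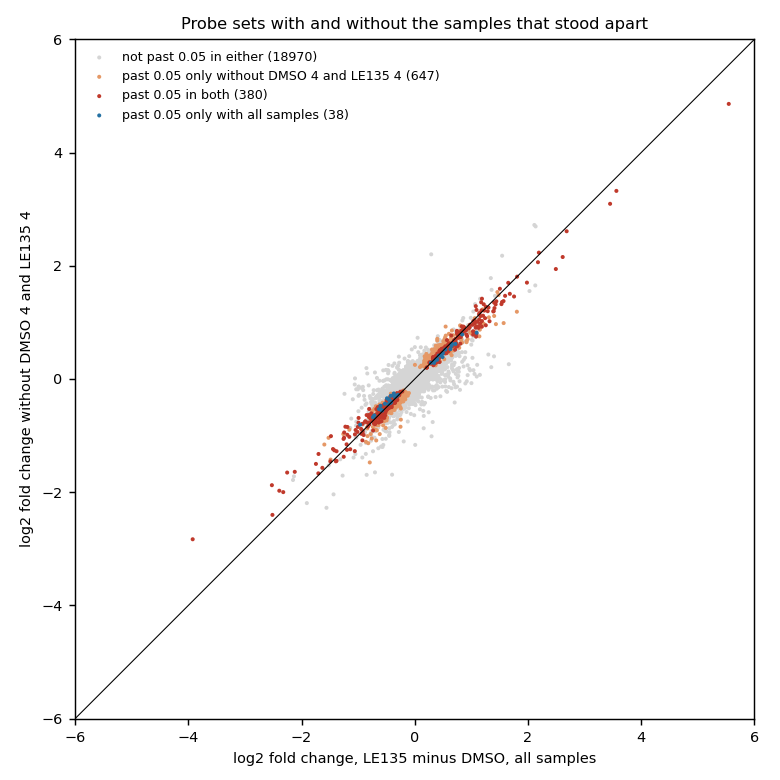
Each point is a probe set, with its log2 fold change (LE135 minus DMSO) over all samples on the x axis and without DMSO 4 and LE135 4 on the y axis. Red points (380) passed 0.05 in both fits, orange points (647) only without these samples and blue points (38) only with them, grey points (18970) in neither, and the line marks equal values.

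Retinoid genes rose. Of 28 measured genes of retinoid synthesis, oxidation, transport and reception, 7 rose (25.0%, against 0.868% of all named genes) and 0 fell, and without DMSO 4 and LE135 4 the count was 9 and 0. The median log2 fold change of the 28 was 0.09, against 0.01 for all probe sets.

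CYP26A1, which oxidizes retinoic acid, stood at 5.05, 8.31, 8.82 and 4.66 in DMSO samples 1 to 4 and at 12.12, 12.10, 12.54 and 12.28 in LE135 samples 1 to 4. The DMSO pools were spread widely, with DMSO 1 and 4 far below 2 and 3, and the LE135 pools lay close together above them all. The log2 fold change was 5.55 (SE 0.79, adjusted p = 0.00524), a 46.8-fold difference of the means, and 4.86 without samples 4. CYP26B1, a second oxidase, stood at 6.84, 7.62, 7.49 and 6.14 in DMSO and 8.60, 8.86, 8.95 and 7.61 in LE135, which overlapped only between DMSO 2 and LE135 4. Its difference of 1.48 had an adjusted p of 0.0505, which became 0.0212 in a fit blocked by sample number and 0.00270 without samples 4. CYP26C1 was near the lowest values of the arrays in both groups (0.01, adjusted p = 0.983).

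Enzymes that make or store retinoids rose in 3 of 13 cases (23.1%, against 0.868% of all named genes). DHRS3, which returns retinaldehyde to retinol, was at 9.91, 10.72, 10.72 and 9.36 in DMSO and 11.79, 11.83, 12.09 and 12.004 in LE135. It rose by 1.75 (SE 0.26, adjusted p = 0.00587). ALDH1A3, which makes retinoic acid from retinaldehyde, was at 9.70, 9.62, 9.32 and 8.89 in DMSO and at 10.79, 11.03, 10.64 and 10.09 in LE135, a rise of 1.26 (SE 0.21). In both genes the lowest LE135 sample lay above the highest DMSO sample. Groups lay apart in 417 of the 418 probe sets that changed. SDR16C5, a retinol dehydrogenase, rose by 1.13 (adjusted p = 0.0275). ALDH1A1, an enzyme with the same activity as ALDH1A3, was higher by 0.98 without passing (adjusted p = 0.0513, or 0.0367 under the block), while a second, dimmer probe set of it rose by 1.09 (adjusted p = 0.00994). ALDH1A2 was near the lowest values of the arrays in both groups (0.03, adjusted p = 0.889).

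Of the carriers and receptors, CRABP2, which carries retinoic acid to the nucleus, rose by 1.08 (adjusted p = 0.0451, or 0.0638 under the block). RARG, retinoic acid receptor gamma, was at 8.73, 8.84, 8.60 and 8.44 in DMSO and 9.09, 9.11, 9.07 and 8.89 in LE135. It rose by 0.39 (adjusted p = 0.0423), and its second probe set did not pass, at 0.06. NRIP1, a corepressor of nuclear receptors, rose by 0.45 (adjusted p = 0.0483). RARA, also near the lowest values, differed by 0.05 (adjusted p = 0.848). Leaving out 1 sample at a time ended the calls of SDR16C5, CRABP2, RARG and NRIP1 at least once but not those of CYP26A1, DHRS3 and ALDH1A3. With the 8 samples alone none of the 7 passed, with adjusted p of 0.0502 for CYP26A1 and 0.0505 for DHRS3 and up to 0.179 for CRABP2.

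**Figure D2:**
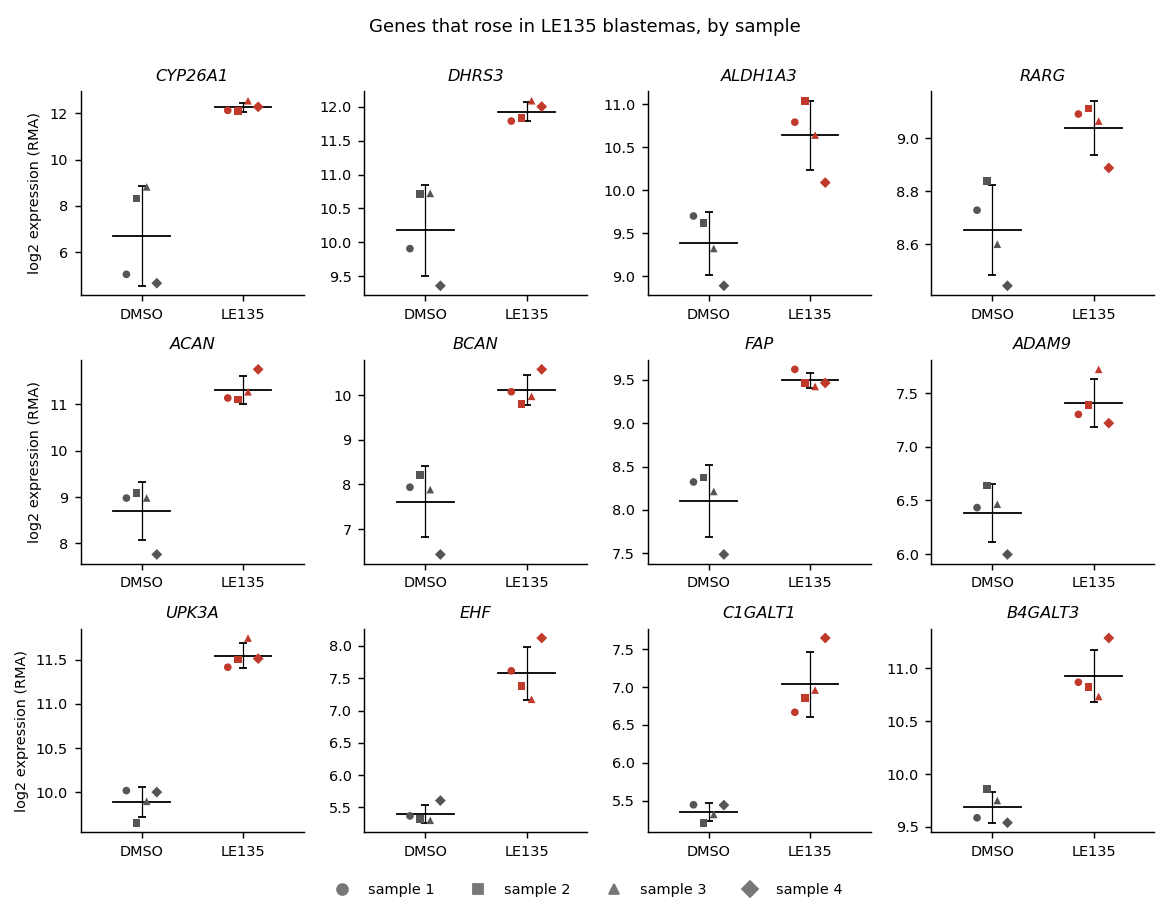
Log2 expression of 12 genes that rose, in the 4 DMSO (grey) and 4 LE135 (red) samples, with marker shapes for samples 1 to 4 and the mean and SD in black. In each gene the LE135 samples lay above all DMSO samples. The groups lay apart in 417 of the 418 probe sets that changed and in 7.53% of all probe sets. DMSO 4 (diamond) was the lowest of its group in 9 of the 12 panels.

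Among the largest rises, matrix genes came next. ACAN, the gene of the proteoglycan aggrecan, was at 8.98, 9.08, 8.98 and 7.76 in DMSO and 11.14, 11.10, 11.27 and 11.75 in LE135. It rose 6.12-fold (log2 fold change 2.61, SE 0.27, adjusted p = 0.000776). BCAN, which encodes the proteoglycan brevican, was at 7.94, 8.20, 7.88 and 6.43 against 10.07, 9.81, 9.97 and 10.58, a rise of 2.49 (SE 0.34, adjusted p = 0.00390). DMSO 4 was the lowest and LE135 4 the highest sample in both, and without them the rises were 2.16 and 1.94. The second probe sets of ACAN (-0.28) and BCAN (0.12) did not pass.

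ACAN and BCAN were the 2 of 29 proteoglycan genes that rose (6.90%, against 0.868% of all named genes), and none fell. ACAN was the 1 gene that rose of 10 cartilage genes, the tissue it is best known from, and none of the 10 fell (1 was lower without samples 4). COL2A1, the main cartilage collagen, differed by -0.75 (adjusted p = 0.315), SOX9, the cartilage transcription factor, by 0.72 (adjusted p = 0.494), and MATN1 was near the lowest values of the arrays. In all samples no gene passed among 26 collagens, 38 laminins and other glycoproteins (2 lower without samples 4) and 11 integrins, with median log2 fold changes of -0.02, 0.02 and 0.07.

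Proteases of the matrix rose in 3 of 30 cases (10%, against 0.868% of all named genes). Without samples 4, 1 of the 30 was lower (3.33%, against 3.53% of all named genes). FAP, a serine protease of activated fibroblasts, was at 8.32, 8.37, 8.21 and 7.49 in DMSO and 9.62, 9.47, 9.42 and 9.46 in LE135. It rose by 1.39 (SE 0.17, adjusted p = 0.00194). ADAM9, a membrane metalloprotease, was at 6.43, 6.64, 6.46 and 5.997 against 7.30, 7.39, 7.72 and 7.22 and rose by 1.02 (adjusted p = 0.00381). MMP9, the gelatinase of leukocytes and wound epidermis, rose by 0.37 (adjusted p = 0.0200). In all 3 genes the groups lay apart, as in 417 of the 418 probe sets that changed. Inhibitors fell in 2 of 15 cases (13.3%, against 1.57% of all named genes). TFPI2, a Kunitz-type protease inhibitor of the matrix, was at 8.72, 8.41, 8.21 and 8.29 in DMSO and 7.22, 7.18, 6.81 and 7.39 in LE135. It fell by 1.26 (SE 0.14, adjusted p = 0.00138), and a second probe set of it fell by 1.39. SERPINB1, which inhibits neutrophil proteases, fell by 0.50 (adjusted p = 0.0308), with a second probe set at -0.57 that did not pass.

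Of 17 epithelial surface, secretory and transport genes 2 rose (11.8%, against 0.868% of all named genes), UPK3A and RHBG. The median log2 fold change over the 17 was -0.01. UPK3A, a uroplakin of the apical membrane of epithelia in mammals, was at 10.02, 9.65, 9.90 and 10.002 in DMSO and 11.42, 11.50, 11.75 and 11.51 in LE135. Its rise of 1.65 (SE 0.13, adjusted p = 0.000168) was larger than the spread within either group. Its other probe sets, at 0.18 and 0.19, did not pass. The one at 0.18 was nearly as bright as the one used (12-sample means of 10.52 and 10.84), and the one at 0.19 was dim (4.57). EHF, an epithelial ETS transcription factor, was at 5.37, 5.32, 5.30 and 5.60 against 7.61, 7.38, 7.17 and 8.12 and rose by 2.18 (SE 0.33, adjusted p = 0.00667). RHBG, an epithelial ammonium transporter, rose by 1.32 (adjusted p = 0.0121).

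C1GALT1, which builds the core 1 structure of mucin-type O-glycans, was at 5.45, 5.21, 5.32 and 5.44 in DMSO and 6.67, 6.86, 6.96 and 7.65 in LE135. It rose by 1.68 (SE 0.22, adjusted p = 0.00303). The galactosyltransferase B4GALT3 was at 9.59, 9.86, 9.75 and 9.54 against 10.87, 10.82, 10.73 and 11.28, a rise of 1.24 (SE 0.16). B3GNT5, which starts lacto-series chains on lipids, rose by 1.19 (adjusted p = 0.0200). These 3 were among 27 genes of mucin-type O-glycan and Lewis chain enzymes (11.1% rose, against 0.868% of all named genes). Without samples 4, 6 of the 27 were higher, where 2.07% of all named genes were. Of the 27, B4GALT2 fell by 0.63 (adjusted p = 0.0306, 0.0589 under the block, 0.0540 without samples 4). Of 28 glycosaminoglycan and hyaluronan genes UAP1, which makes UDP-N-acetylglucosamine, was the 1 that passed, and it fell by 1.04 (adjusted p = 0.0202).

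The other large rises had no shared role. SMPDL3B, a membrane phosphodiesterase that acts on lipids, rose by 1.23 (adjusted p = 0.00304), from 8.26 to 8.72 in DMSO to 9.57 to 9.81 in LE135. ASL, the argininosuccinate lyase of the urea cycle, rose by 1.14 (adjusted p = 0.00405), and its samples ran from 9.23 to 9.80 and from 10.26 to 10.91. SGK2, a serum- and glucocorticoid-regulated kinase, rose by 1.06 and SLC4A4, a bicarbonate transporter, by 1.09. The homeobox factor PAX6 rose by 1.19 at the edge of the threshold (adjusted p = 0.0500), and GCG, the glucagon precursor, by 1.09 from a low level (adjusted p = 0.0464, 0.0883 under the block, 0.0891 without samples 4). Other probe sets of SLC4A4 (0.32 and 0.02) and GCG (0.00) did not pass.

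Smaller rises were found in SP7, an osteoblast transcription factor, by 0.73 (adjusted p = 0.00708), and in the fatty acid elongases ELOVL5, by 0.51, and ELOVL6, by 0.88. CYBA, a subunit of the phagocyte oxidase, rose by 0.40, while SPI1, the transcription factor of the myeloid lineage, fell by 0.60, so that 1 macrophage gene of 14 rose and 1 fell. Of the 20 genes with the largest rise, 19 passed without samples 4 and 13 under each omission of 1 sample. The 9 that passed with the 8 samples alone were ACAN, BCAN, EHF, C1GALT1, UPK3A, FAP, B4GALT3, SMPDL3B and ASL.

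The largest falls were led by DNASE1L3, a secreted nuclease. It was at 9.63, 9.37, 9.43 and 9.83 in DMSO and 8.17, 8.34, 7.96 and 7.00 in LE135, a fall of 1.70 (SE 0.25, adjusted p = 0.00580), and 1.32 without samples 4. Its second probe set, at -0.64, did not pass. Of 127 signalling genes 3 fell (2.36%, against 1.57% of all named genes) and 0 rose. Without samples 4 the counts were 6 (4.72%) and 4, where 3.53% of all named genes fell and 2.07% rose. BMPR1B, a type I receptor of bone morphogenetic proteins with a known part in limb skeleton formation in mammals, was at 8.29, 8.12, 8.26 and 8.06 in DMSO and 6.83, 7.12, 6.38 and 6.88 in LE135. Its fall of 1.38 (SE 0.14, adjusted p = 0.000666) was the 1 change among 37 BMP and TGF-beta genes, by the probe set that stands for each. A second probe set of TGFB2 rose, as given below. IGFBP2, which binds insulin-like growth factors, was at 10.55, 10.58, 10.68 and 10.99 against 9.98, 9.94, 9.58 and 9.33 and fell by 0.99 (adjusted p = 0.00750). NRG1, neuregulin 1, a growth factor that nerves supply to the salamander blastema, was at 5.73, 5.18, 5.32 and 5.30 in DMSO and at 4.67, 4.63, 4.63 and 5.05 in LE135. It fell by 0.64 from this low level (adjusted p = 0.0287), and its second probe set, at 0.03, did not pass.

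No gene of the FGF (15 measured), WNT (28), Notch (13) or hedgehog (8) lists passed in all 12 samples. Without DMSO 4 and LE135 4 the receptor NOTCH1 (-0.80, adjusted p = 0.00162), its ligand JAG1 (-0.61) and the R-spondin receptor LGR4 (-0.36) were lower, and ID3, a target of BMP signals (0.66), BOC, a hedgehog co-receptor (0.56), TGFB2 (0.80) and the epidermal growth factor family ligand AREG (0.93) were higher. In all 12 samples their adjusted p lay between 0.0701 for LGR4 and 0.386 for NOTCH1. With the block JAG1 and AREG passed (adjusted p = 0.0430 and 0.0407). The second probe set of TGFB2 rose in the 12 samples, by 1.16 (adjusted p = 0.00624). A second, dimmer probe set of NOTCH1 was at 0.17 without samples 4 and did not pass. FGF8, the limb bud ligand, spread from 5.14 to 7.31 in DMSO and 5.88 to 6.64 in LE135 (0.10, adjusted p = 0.960).

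NEBL, nebulette, an actin-binding protein, was at 8.15, 7.81, 7.57 and 7.65 in DMSO and 6.68, 6.62, 6.49 and 6.82 in LE135. It fell by 1.14 (SE 0.11, adjusted p = 0.000638). NIN, ninein, which anchors microtubules at the centrosome, fell by 0.90 (adjusted p = 0.00385), from 9.04 to 9.46 in DMSO to 8.32 to 8.56 in LE135, while its 3 dimmer probe sets, at 0.04 to 0.24, did not pass. The GTPase RHOF fell by 1.01, with a second probe set at 0.44 that did not pass, and the kinase TESK2 by 0.88. FAM83B, a signalling scaffold of epithelial cells, fell by 0.92 (adjusted p = 0.00946), and of its other probe sets 1 fell by 0.81 and 1 did not pass, at -0.50.

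The adaptor DOK4 was at 7.83, 7.60, 7.78 and 9.24 in DMSO and 6.47, 6.53, 7.16 and 6.34 in LE135. DMSO 4 was high, and the fall of 1.48 became 1.01 without samples 4 (adjusted p = 0.0486, or 0.0508 under the block). RAP1GAP, which turns off the GTPase RAP1, fell by 0.99 (adjusted p = 0.0308, or 0.0572 under the block), and PDZRN3, a ubiquitin ligase, by 0.94. Of membrane and secreted proteins, the receptor GPR37 fell by 1.20, the receptor phosphatase PTPRZ1 by 1.01 (a second probe set, at -0.56, did not pass) and PMCH, a neuropeptide precursor, by 0.97 (adjusted p = 0.0289, and 0.0613 without samples 4). CDO1, which oxidizes cysteine, fell by 0.87 with a second probe set at -0.27 that did not pass, as did the -0.87 of a second probe set of UAP1.

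Of 139 genes of stress and immunity 2 fell (1.44%) and 2 rose (1.44%), against 1.57% and 0.868% of all named genes. Without samples 4 the counts were 4 (2.88%) and 7, where 3.53% of all named genes fell and 2.07% rose. DDIT3, also known as CHOP, a transcription factor of the unfolded protein response, was at 9.57, 9.39, 9.46 and 9.34 in DMSO and at 8.24, 9.12, 8.10 and 7.53 in LE135. It fell by 1.19 (adjusted p = 0.0387), and its LE135 samples were spread more widely than its DMSO samples. GADD45A, a growth arrest gene, was at 9.36, 9.27, 9.26 and 9.28 against 8.85, 8.97, 8.71 and 8.95 and fell by 0.42 (adjusted p = 0.00667). HSP90AB1, a chaperone, rose by 0.22 (adjusted p = 0.0489, or 0.0757 under the block) with 2 other probe sets that did not pass, at 0.09 and 0.17, and SESN3, a stress-response sestrin, by 0.33 (adjusted p = 0.0424, or 0.0578 under the block). TRAF3IP3, a gene of lymphocytes, fell by 0.69 (adjusted p = 0.00624), the 1 change among 6 lymphocyte genes.

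Of the 20 genes with the largest fall, 19 passed without samples 4, 17 with the block and 8 under each omission of 1 sample. With the 8 samples alone 6 passed, DNASE1L3, BMPR1B, DLX6, TFPI2, NEBL and NIN. Omission of DMSO 1 ended the calls of TGM1, GPR37, DDIT3, UAP1, PTPRZ1, RHOF, PMCH and TESK2 and gave the highest adjusted p of any omission for each, at most 0.107 for DDIT3.

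**Figure D3:**
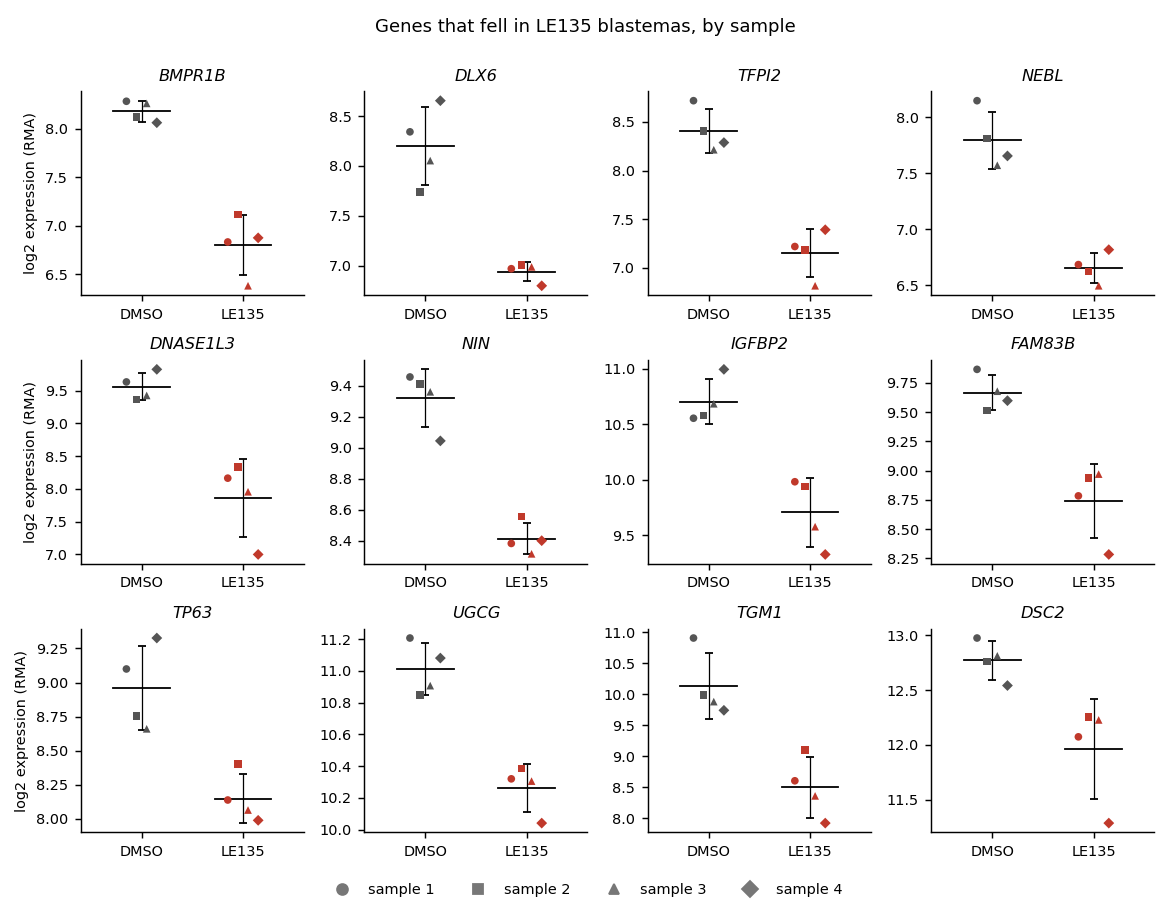
Log2 expression of 12 genes that fell, in the 4 DMSO (grey) and 4 LE135 (red) samples, with marker shapes for samples 1 to 4 and the mean and SD in black. The highest LE135 sample lay below the lowest DMSO sample in each. The groups lay apart in 417 of the 418 probe sets that changed and in 7.53% of all probe sets. LE135 4 (diamond) was the lowest of its group in 8 panels.

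Cell division genes were lower. Of 227 measured genes, 46 fell (20.3%, against 1.57% of all named genes) and 0 rose, and 197 of the 227 had a log2 fold change below 0, with a median of -0.24. The falls were small next to those above, from -0.77 to -0.26. Without DMSO 4 and LE135 4, 81 fell (35.7%, against 3.53% of all named genes) and 0 rose, and the median was -0.23. For the roles described below, the same shares of all named genes apply, 1.57% with all samples and 3.53% without samples 4. Averaged over the 227 genes, the deviation from the 12-sample mean was 0.17, 0.16, 0.08 and 0.13 in DMSO samples 1 to 4 and -0.09, -0.05, -0.17 and -0.11 in LE135, so the groups lay apart. With the 8 samples alone 6 genes passed, CLSPN, MELK, MAD2L1, NUSAP1, ANLN and FBXO5. The count was 17 without DMSO 1 and 74 without DMSO 4. In mean level per sample other lists lay apart as well. LE135 was higher in the retinoid and proteoglycan lists and lower in the desmosome and adherens junction and pre-mRNA splicing lists.

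At the start of replication, 9 of 44 genes of origin licensing and the replication fork fell (14 without samples 4), with a median of -0.24. CLSPN, claspin, which couples the fork to the checkpoint, was at 5.67, 5.80, 5.76 and 5.72 in DMSO and 5.30, 5.37, 5.18 and 5.29 in LE135. It fell by 0.45 (SE 0.06, adjusted p = 0.00231). MCM10, a replication factor, and MCM5, of the replicative helicase, fell by 0.62 (adjusted p = 0.0129) and 0.35 (adjusted p = 0.0135). The primase PRIM1 fell by 0.42 and the polymerase epsilon subunit POLE2 by 0.48. GINS1 and GINS4 of the helicase complex fell by 0.34 and 0.36 and did not pass without samples 4 (adjusted p = 0.0667 and 0.0694). POLA2 of the primase complex fell by 0.31 and GINS4 as above, and neither passed with the block (adjusted p = 0.0514 and 0.0873). PCNA, the sliding clamp, was at 12.85, 12.84, 12.66 and 12.63 against 12.49, 12.55, 12.40 and 12.30, groups that lay apart without passing (-0.31, adjusted p = 0.0567).

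Nucleotide supply and repair each gave 1 call, with medians of -0.02 and -0.19. RRM1, the large subunit of ribonucleotide reductase, was the 1 of 21 nucleotide genes that fell, by 0.30 (adjusted p = 0.0438, 0.0649 under the block, 0.0550 without samples 4). UHRF1, which copies DNA methylation behind the fork, was the 1 of 21 repair and methylation genes that fell, by 0.42 (adjusted p = 0.0200). Without samples 4, 7 of these 21 fell, among them EXO1 (-0.48) and BRCA1 (-0.67), and BRCA1 passed with the block in all samples (adjusted p = 0.0343). A second probe set of BRCA1, at -0.27 without samples 4, did not pass.

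Of 36 cyclins, kinases and regulators of cell cycle transcription 6 fell (11 without samples 4). They were the mitotic kinase MELK by 0.55 (adjusted p = 0.0121), the kinase subunit CKS1B by 0.46, the cyclins CCNB3 by 0.44, CCNA2 by 0.47 and CCNE2 by 0.58, and the cyclin-dependent kinase inhibitor CDKN2C by 0.59 (adjusted p = 0.0306, or 0.0522 under the block). CDKN2C slows the cycle where the others drive it. The cyclin CCNB1 was at -0.39 (adjusted p = 0.133, or 0.0459 under the block).

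Genes of mitosis itself held most of the falls. Of 21 condensin, cohesin and chromosome structure genes 6 fell (13 without samples 4), with a median of -0.31. ESCO2, which acetylates cohesin, was at 8.26, 8.13, 8.07 and 7.99 in DMSO and 7.57, 7.70, 7.55 and 7.32 in LE135 and fell by 0.58 (adjusted p = 0.00632). The condensin genes NCAPG, NCAPD3, SMC4 and SMC2 fell by 0.45, 0.50, 0.52 and 0.54 and the chromokinesin KIF4A by 0.60. MKI67, the proliferation marker, was at 10.95, 10.99, 10.81 and 9.81 in DMSO and 10.41, 10.63, 10.42 and 9.80 in LE135. DMSO 4 and LE135 4 were the lowest of their groups, and the difference was -0.32 with them (adjusted p = 0.658) and -0.43 without them (adjusted p = 0.0139).

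Of 24 kinetochore and checkpoint genes 3 fell (8 without samples 4). MAD2L1, the spindle checkpoint protein, was at 10.37, 10.21, 10.002 and 10.18 in DMSO and 9.59, 9.67, 9.31 and 9.55 in LE135 and fell by 0.66 (SE 0.09, adjusted p = 0.00394). The checkpoint kinase BUB1B fell by 0.43 and NDC80, which binds microtubules at the kinetochore, by 0.42. CENPF, also of the kinetochore, was lower without samples 4 (-0.97, adjusted p = 0.00203) and did not pass with them (-0.78, adjusted p = 0.154).

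Of 27 spindle genes 11 fell (40.7%), and 14 without samples 4 (51.9%), where the condensin and cohesin list had the higher share (61.9%). HMMR fell by 0.64, NUSAP1 by 0.52, DLGAP5 by 0.53, CKAP2 by 0.50, the kinesins KIF11, KIF2C and KIF15 by 0.52, 0.48 and 0.37, and HAUS1 of the augmin complex by 0.38. KIF11, which pushes the spindle poles apart, was at 9.92, 10.09, 9.94 and 9.81 against 9.42, 9.57, 9.20 and 9.51. Of 17 cytokinesis and chromosomal passenger genes 6 fell (8 without samples 4), with a median of -0.39, and -0.32 without samples 4. ANLN, anillin, which organizes the contractile ring, was at 10.07, 10.06, 10.13 and 9.85 in DMSO and 9.31, 9.36, 9.37 and 9.02 in LE135. It fell 1.70-fold (log2 fold change -0.77, SE 0.09, adjusted p = 0.00138), with 2 other probe sets that did not pass, at -0.50 and 0.08.

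The other cytokinesis genes that fell were KIF23 by 0.60, ECT2 by 0.47, PRC1 by 0.50, CDCA8 by 0.51 and CEP55 by 0.41 (adjusted p = 0.0406, or 0.0821 under the block). For KIF23 2 of 3 other probe sets also fell. Of 16 genes of the anaphase promoting complex and separase 3 fell, its inhibitor FBXO5 by 0.56 (adjusted p = 0.00304), the subunit ANAPC1 by 0.38 and the separase ESPL1 by 0.47. Other probe sets of NCAPG, NCAPD3, SMC4, SMC2, NDC80, KIF11, HMMR, HAUS1, CCNB3, POLE2, POLA2 and FBXO5 did not pass, with log2 fold changes from -0.68 to -0.07.

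**Figure D4:**
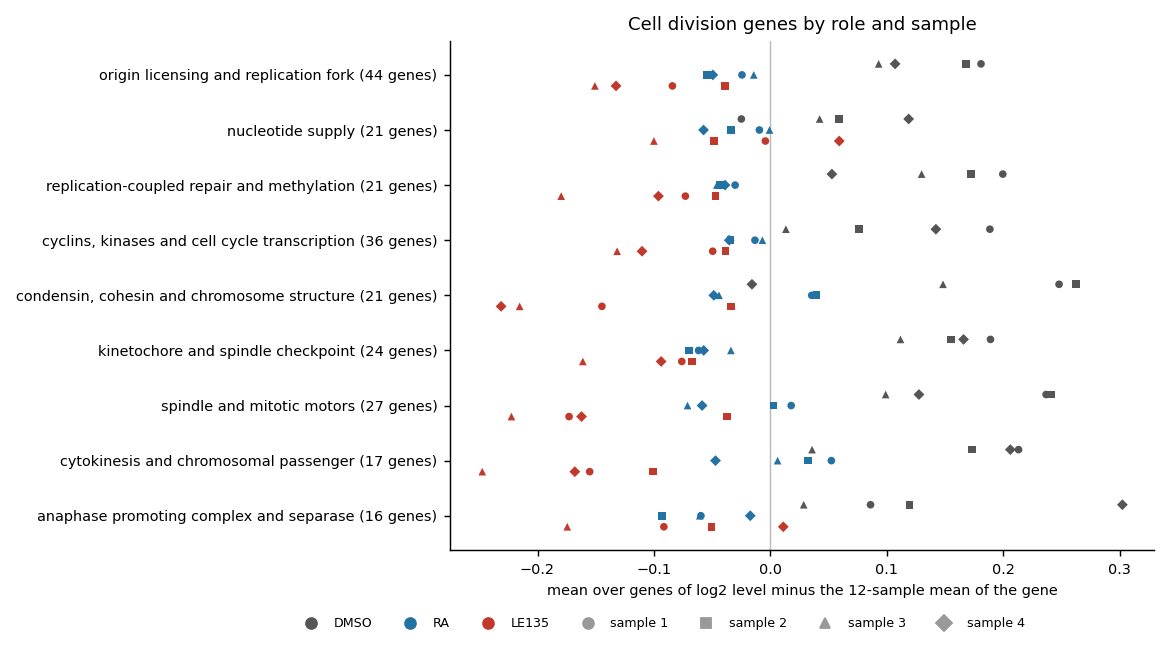
For 9 roles in cell division, the mean over genes of the log2 level minus the 12-sample mean of the gene, on the x axis, in the 4 DMSO (grey), RA (blue) and LE135 (red) samples, with marker shapes for samples 1 to 4. LE135 lay below DMSO without overlap in 8 roles and overlapped with it in nucleotide supply. Some lists outside cell division also lay apart in this measure, among them those of retinoid genes, proteoglycans and pre-mRNA splicing.

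In RA samples the deviation averaged over the 227 genes ran from -0.046 to -0.012, against -0.170 to -0.048 in LE135. Against the same DMSO samples, which both comparisons share, 11 of the 227 fell (1.22% of all named genes did) and 2 rose (1.53%) under RA, with a median log2 fold change of -0.18. No cell division gene differed between LE135 and RA in the direct test, which only 4 of all named genes passed (0.0463%).

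Epidermis genes changed in both directions. Of 67 measured, 7 fell (10.4%, against 1.57% of all named genes) and 3 rose (4.48%, against 0.868%). Without samples 4 the counts were 12 and 4, where 3.53% of all named genes fell and 2.07% rose. TP63, the master regulator of basal keratinocytes, was at 9.10, 8.75, 8.66 and 9.33 in DMSO and 8.14, 8.40, 8.06 and 7.99 in LE135. It fell by 0.81 (SE 0.15, adjusted p = 0.0212), and its second probe set, at -0.72, did not pass. Of 16 differentiation genes 4 fell and EHF rose. UGCG, which makes glucosylceramide for the skin barrier, was at 11.21, 10.85, 10.91 and 11.08 against 10.32, 10.39, 10.31 and 10.04 and fell by 0.75 (adjusted p = 0.00338). The cross-linking enzyme TGM1 was at 10.91, 9.99, 9.88 and 9.74 against 8.60, 9.10, 8.36 and 7.92 and fell by 1.63 (adjusted p = 0.0401, or 0.0847 under the block). The protease matriptase, ST14, fell by 0.47 (adjusted p = 0.0146), and the transcription factor OVOL2 by 0.61 (adjusted p = 0.0480, 0.0734 under the block, 0.0947 without samples 4).

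All 10 desmosome and adherens junction genes had a log2 fold change below 0. DSC2, a desmosomal cadherin, fell by 0.81 (adjusted p = 0.0483) from 12.98, 12.76, 12.81 and 12.54 to 12.07, 12.26, 12.23 and 11.29, and plakoglobin, JUP, fell by 0.35 (adjusted p = 0.0364, or 0.0569 under the block). Without samples 4 the plakin DSP (-0.32), the plakophilin PKP1 (-0.53), the integrin ITGA6 of the basal layer (-0.60) and the epithelial factor GRHL2 (-0.35) were also lower. A second probe set of PKP1, at -0.08 in that fit, did not pass. Of 17 surface, secretory and transport genes UPK3A and RHBG rose and 0 fell (2 were lower without samples 4), and in all 12 samples none passed among 12 tight and gap junction genes and 2 keratins. AQP3, a water channel, was at 8.33, 8.11, 8.40 and 9.82 in DMSO and 7.51, 7.36, 7.04 and 7.69 in LE135 a difference of -1.26. Its adjusted p was 0.0620, then 0.0428 under the block and 0.00299 without samples 4, while its dim second probe set did not pass, at 0.10. Of the 10 epidermis genes that changed, 7 passed with the block and 3 with the 8 samples alone, EHF, UGCG and UPK3A.

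Among limb patterning genes 1 of 32 rose and 1 fell (3.1% each, against 0.868% and 1.57% of all named genes). Without samples 4 the counts were 1 and 3, where 2.07% of all named genes rose and 3.53% fell. MEIS1, a homeobox factor of the proximal limb, was at 7.05, 7.07, 7.18 and 7.10 in DMSO and 7.44, 7.66, 7.73 and 7.94 in LE135. It rose by 0.59 (SE 0.09, adjusted p = 0.00675). DLX6, a homeobox factor of the distal limb, was at 8.34, 7.74, 8.05 and 8.65 against 6.97, 7.00, 6.99 and 6.80 and fell by 1.26 (SE 0.16, adjusted p = 0.00303). No other gene of the proximal and distal lists passed in all samples. The proximal homeobox gene EMX2 was lower without samples 4 (-0.57, adjusted p = 0.0238) and did not pass with them (-0.67, adjusted p = 0.245). MEIS2 differed by 0.47 (adjusted p = 0.236), the distal factor LHX9 by -0.24 (adjusted p = 0.666), and HOXA13, the factor of the hand region, by 0.47 from a low level, with LE135 samples from 4.35 to 5.62 (adjusted p = 0.429). HOXA9, HOXA11 and SHH had no named probe set.

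Of the 211 genes that changed in LE135, 95 also passed in RA against DMSO in the same direction, and 116 did not pass there. Of all named genes, 1.53% rose and 1.22% fell under RA. The first included ACAN (2.66 in RA), BCAN (2.68), FAP (1.60), DHRS3 (2.25) and DLX6 (-1.38). The second included TFPI2 (-0.52, adjusted p = 0.0887) and NEBL (-0.42, adjusted p = 0.0878). A gene that did not pass under RA need not differ between the drugs. In the direct test of all samples TFPI2 and NEBL did not pass (adjusted p = 0.127 and 0.0825). LE135 and RA blastemas were compared directly, since both were set against the same DMSO samples above. In all, 4 probe sets differed (0.0200%; limma, adjusted p under 0.05), all of them named genes (0.0463%), where 1537 had an unadjusted p under 0.05. LMO1, a LIM-only cofactor of distal limb cells, was at 7.60, 7.56, 7.57 and 7.73 in LE135 and 5.79, 5.49, 6.13 and 6.15 in RA. It was higher in LE135 by 1.73 (SE 0.16, adjusted p = 0.00518), and DMSO samples, at 7.26, 7.90, 7.64 and 7.47, overlapped with LE135 (0.05, adjusted p = 0.944). LHX2, a LIM homeobox factor of the distal limb, was higher in LE135 than in RA by 1.31 (SE 0.15, adjusted p = 0.0185) and differed from DMSO by 0.05 (adjusted p = 0.947). SPRY1, an antagonist of FGF signals, was higher in LE135 by 0.75 (SE 0.10, adjusted p = 0.0485, or 0.0733 under the block), at 8.58, 8.46, 8.28 and 8.73 against 7.93, 7.74, 7.73 and 7.66, and did not differ from DMSO past the threshold (0.00, adjusted p = 0.993).

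NRIP1 was the 1 gene lower in LE135 than in RA, by 0.91 (SE 0.10, adjusted p = 0.0184). It stood at 8.20, 8.33, 8.31 and 7.97 in DMSO, 8.63, 8.78, 8.74 and 8.45 in LE135 and 9.43, 9.47, 9.70 and 9.66 in RA. The 3 groups did not overlap, and the share of all probe sets of which that holds was not counted. The call of its rise in LE135 against DMSO ended in 11 of the 12 omissions of 1 sample. Between LE135 and RA, the call of LMO1 held under each omission of 1 sample, while those of LHX2, NRIP1 and SPRY1 ended in 7, 4 and 8 of the 12 omissions. That of SPRY1 also ended with a trended robust prior (adjusted p = 0.0507) and after renewed quantile normalization (adjusted p = 0.0574). Without DMSO 4 and LE135 4, 43 probe sets and 21 named genes differed (0.215% and 0.243%). Besides the 4, the genes described here that passed were RHAG (-1.23), DDIT4 (-1.22), PDZRN3 (-0.79), NEBL (-0.78) and MEIS2 (-0.53, adjusted p = 0.0499), all lower in LE135 than in RA. LHX9 levels differed by 1.29 between LE135 and RA (SE 0.19, adjusted p = 0.0652), and those of CYP26A1 by -0.32 (SE 0.79, adjusted p = 0.956). The SE of CYP26A1 draws on all 3 groups, with SDs of 2.16 in DMSO, 0.20 in LE135 and 0.15 in RA. The wide DMSO spread makes this test insensitive to a difference of that size between LE135 and RA.

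**Figure D5:**
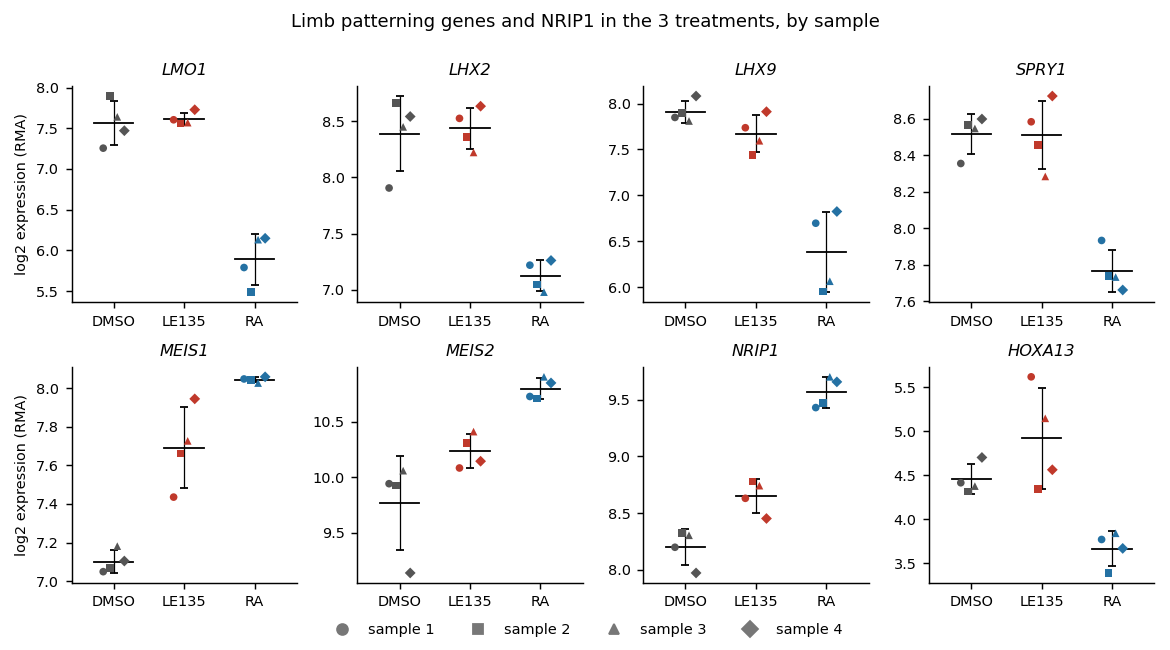
Log2 expression of 7 limb patterning genes and the corepressor NRIP1 in DMSO (grey), LE135 (red) and RA (blue) samples, with marker shapes for samples 1 to 4 and the mean and SD in black. LMO1, LHX2 and SPRY1 in LE135 overlapped with DMSO and lay above all RA samples, and NRIP1 rose in LE135 to a level below all RA samples.

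Without DMSO 4 and LE135 4, a further 286 genes passed the threshold. Among them IRF1, an interferon-induced transcription factor, stood at 8.44, 8.53, 8.57 and 9.92 in DMSO and 9.90, 10.04, 10.21 and 11.16 in LE135. The difference was 1.54 without samples 4 (adjusted p = 8.07e-05) and 1.46 with them (adjusted p = 0.0513, or 0.0111 under the block). The epithelial ETS factor ELF3 was higher by 0.93, the growth cone gene GAP43 by 0.95, ELFN1 by 0.85, NET1, an exchange factor of the GTPase RHOA, by 0.78, KCNQ1, a potassium channel, by 0.73, SH3BGRL2 by 0.68 and the glycosyltransferase B3GNT7 by 0.80. A second probe set of NET1, at -0.05, did not pass.

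Of genes lower only in that fit, DDIT4, a hypoxia-induced inhibitor of mTOR, was at 8.34, 9.02, 8.78 and 8.24 in DMSO and 7.12, 7.27, 7.32 and 9.49 in LE135. LE135 4 lay above all DMSO samples and the other LE135 samples below them, and the difference was -1.47 without samples 4 (adjusted p = 0.00244) and -0.80 with them (adjusted p = 0.490). NDRG1, also induced by hypoxia, was at 10.05, 10.29, 10.48 and 10.34 against 9.21, 9.18, 9.10 and 10.23 and lower by 1.11 without samples 4. MATN4, a matrix matrilin, was lower by 1.16, EMP1, an epithelial membrane protein, by 1.04, NAPA, of vesicle fusion, by 1.05, EMILIN2, a matrix glycoprotein, by 0.82, the plakin EPPK1 by 0.82, the glycosyltransferase B3GNT3 by 0.88 and the protease PRSS23 by 0.85. RHAG, an ammonium transporter of erythrocytes, was lower by 0.72. Its highest value of the 8 samples was in LE135 4, at 8.03, the sample that was also highest in the mean deviation of the erythrocyte list (0.37).

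In all samples no gene passed among 55 ribosomal proteins, 52 ribosome biogenesis genes, 44 oxidative phosphorylation genes, 48 splicing genes and 60 chromatin modifiers and remodelers, and their median log2 fold changes lay between -0.03 and 0.02. Without samples 4 the chromatin list had 2 genes higher and 5 lower (8.33%, against 3.53% of all named genes), and the other 4 lists still had none. With all samples no member passed among 34 skeletal muscle genes (median 0.40, spread as given above), 15 endothelial, 11 pericyte and smooth muscle, 7 erythrocyte, 7 Schwann cell and 6 pigment cell genes, nor among 25 genes of the xenobiotic and oxidative stress response, 23 of hypoxia and glycolysis and 26 of inflammation. Without samples 4, 1 gene each was lower in the endothelial, erythrocyte and hypoxia lists and 1 was higher in the inflammation list. Of the 418 probe sets that changed, 170 had no symbol. The largest rises among these were those of axo27297-f_at, by 3.56, and axo14037-f_at, by 3.45. The probe set axo06032-f_at fell by 3.92, where DMSO 4 stood at 12.09 and the other DMSO samples at 8.38 to 8.83. Without samples 4 it fell by 2.83. The probe set axo30895-f_at fell by 2.52.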

How the data were processed

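The deposited log2 expression values of 12 arrays, 1 per pooled sample, were used as given. The authors made them with RMA, per the submitters' processing notes, which give no version. Groups came from the sample titles. No dim probe set was removed, only 45 Affymetrix controls. Symbols came from the platform annotation (9084 tested probe sets had none), and all 8639 matched the species' RefSeq genes. One model with a mean per treatment was fitted to all 12 samples in limma 3.58.1 (R 4.3.3), with moderated contrasts and Benjamini-Hochberg adjustment over 20035 probe sets at 0.05. SE is that of the contrast. Adjusted p refers to this fit unless another is named. The number of arrays, 4 a group, limits the precision.

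The genes named are the 20 largest rises and 20 largest falls, list members past the threshold with or without DMSO 4 and LE135 4 (up to 8 per role, by p), up to 12 each way among genes past it only without these samples, the genes that differed between LE135 and RA, and genes fixed whatever their values. The comparison and the 59 lists of genes were chosen with earlier results of these data known, so counts over them are descriptions. No list was tested.

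Same-numbered LE135 and DMSO samples deviated together from their group means (correlations of 0.24, 0.13, 0.32 and 0.61 over probe sets), so a fit with the number as a block was run. Different numbers among samples 1 to 3 also correlated, at 0.12 to 0.39, so the shared number rests mainly on samples 4. The other alternatives are the 8 samples alone, a trended robust prior, renewed quantile normalization, arrays shifted to one median, removal of probe sets with a mean under 5, array weights, the mean of a gene's probe sets and the omission of each sample. The scripts were tested on simulated data.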

Additional observations from a re-analysis of the deposited data

Results flagged for a closer look

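In groups of 4, a sample was picked out where its gap to the nearest of the others, as a share of the range of the group, passed Dixon's criterion, which chance meets in about 1 of 20 groups. Of 354 such groups, over the genes and lists described, 30 had one, 10 of them in DMSO 4 and 13 in LE135 4. Some of these genes, such as CENPF, NOTCH1, IRF1 and DDIT4, were named because they passed only without DMSO 4 and LE135 4. That choice favours genes in which a sample 4 deviated, so these counts cannot be set against 1 in 20.

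DMSO 4 was low in ACAN (7.76), POLA2 (9.56), MKI67 (9.81), CENPF (7.23), EXO1 (6.86), DSP (12.91), MEIS2 (9.14) and NOTCH1 (8.39), and high in DOK4 (9.24) and IRF1 (9.92). LE135 4 was high in SGK2 (7.34), HSP90AB1 (13.89), SESN3 (9.07), NRG1 (5.05), ELF3 (7.79), NDRG1 (10.23), DDIT4 (9.49) and RHAG (8.03). It was low in DLX6 (6.80), EMX2 (7.70), UAP1 (9.36), MCM5 (9.62) and CCNE2 (7.29).

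Other samples stood out less often. DMSO 1 was high in RHOF (10.06), MCM10 (7.41) and PKP1 (9.96). LE135 1 was low in SMPDL3B (9.57) and LE135 3 in CCNB3 (9.60). LE135 2 was low in the mean deviation of the cartilage list (-0.2433) and high in that of the neutrophil list (0.3644).

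The direct test of LE135 against RA differed for LMO1 (1.73 higher in LE135 on the log2 scale), LHX2 (1.31), SPRY1 (0.75) and NRIP1 (-0.91, lower in LE135).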

How the results depend on the processing

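Fitting the 8 LE135 and DMSO samples alone lowered the counts to 111 probe sets (60 higher, 51 lower, 94 over 1.5-fold), 6 cell division and 1 epidermis gene lower and 0 retinoid genes higher. It uses fewer samples for the spread and leaves out RA, whose arrays lay closest together. Their mean correlation with the other samples of their group was 0.994 to 0.995. In DMSO it was 0.978 to 0.990 and in LE135 0.986 to 0.993. Which of these lowered the counts was not tested. Array weights raised them to 1265 (509, 756 and 381), 87, 13 and, for LE135 against RA, 186 probe sets. Without DMSO 4 and LE135 4 they were 1027 (442, 585 and 343), 81, 12 and 43. With the replicate number as a block, 449 probe sets changed, LE135 against RA gave 11, and the fit without samples 4 gave 669 instead of 1027. That fit gave 484 without the RA samples. With arrays shifted to one median 4 epidermis genes were lower.

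Leaving out 1 sample at a time gave 220 to 742 probe sets changed (105 to 300 higher, 113 to 442 lower, 149 to 351 over 1.5-fold), 1 to 13 for LE135 against RA, 17 to 74 cell division and 1 to 7 epidermis genes lower, 3 to 7 retinoid genes higher, and 442 to 939 in the fit without samples 4. The lowest counts came without LE135 1 (220, 105, 149, 3 and 442), DMSO 1 (113, 17 and 1) and RA 2 (1). The cause of these moves was not tested.

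Of 105 genes named as changed, none turned direction. The same side of the threshold was kept by 105 with array weights and with dim probe sets left out, 101 with the trended robust prior, 98 without samples 4, 96 after quantile normalization, 90 with the block, 87 after the median shift, 45 under each omission of 1 sample and 25 with the 8 samples alone. Genes that did not pass turned around 0. CYP26C1 was at -0.022 after quantile normalization and -0.023 without DMSO 2. ALDH1A2 was at -0.0084 without samples 4, -0.020 with array weights and -0.0040 without LE135 4. FGF8 was at -0.23 without samples 4, -0.15 with array weights and -0.089 without DMSO 1. LMO1 was at -0.020, -0.026 and -0.054 in the same order, and LHX2 at -0.12 without DMSO 1. SPRY1 was at 0.027 after quantile normalization, 0.00071 after the median shift, 0.00054 with array weights and 0.012 without DMSO 2.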
